A study of Mus musculus with 72 samples.

Results

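Aminoacyl-tRNA synthetases are the enzymes that load each tRNA with its amino acid before the ribosome uses it. Their mRNAs were followed in the suprachiasmatic nucleus (SCN), the hypothalamic nucleus that holds the master circadian clock of mammals. The set was chosen by gene symbol and holds 36 genes, of which 20 encode cytosolic enzymes or their subunits and 16 encode mitochondrial enzymes. All 36 symbols were found in the expression tables, which hold 24883 rows and 24346 symbols.

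Cytosolic and mitochondrial synthetases are nearly all products of separate nuclear genes, and the mitochondrial member of a pair carries the suffix 2. Wars charges the cytosolic tryptophan tRNA and Wars2 the mitochondrial tRNA for the same amino acid. When a tRNA stays uncharged, the kinase GCN2 slows translation and raises the factor ATF4, which is known to switch on many cytosolic synthetase genes together with amino acid transporters and synthesis enzymes. Wars is also known as an interferon-induced gene.

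SCN RNA came from C57BL/6 males that were 8 weeks old when acclimation began, with no genetic change stated, in a design that crossed diet with light and time of day. Mice were kept for 1 week in 12 h of light and 12 h of dark (LD) or in constant darkness (DD), and then for 2 weeks on a diet depleted of tryptophan (-Trp) or on a nitrogen-matched control diet (Ctrl), eaten freely under the same light schedule. Each of the 4 combinations of diet and light had 18 libraries, 3 mice at each of 6 times (0, 4, 8, 12, 16 and 20 h). Expression was deposited as FPKM, fragments per kilobase of transcript relative to the mapped fragments of the library, so that levels of different genes can be compared per length, while the depth behind a value is unknown. In bulk tissue, fewer cells of a type and less RNA per cell cannot be told apart.

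The names of the deposited columns and the values printed in the study's own SCN table do not place the libraries alike. All 36 control columns of that table equalled, in every gene compared, a deposited column of another name, and 0 equalled the column of the same name. The main results place every library by that table, with 36 -Trp columns placed by continuing the same shift, and the results by column name are given near the end. Under this placing the sum of FPKM was 403066 to 524705 in the LD libraries and 317417 to 353587 in 35 of the DD libraries, and it was 411944 in -Trp DD at 4 h, replicate 2. Ctrl DD at 12 h, replicate 1, stood apart in its markers. Its 7 markers of SCN neurons (Vip, Avp and others) summed to 40.5 FPKM against 145 to 537 in the other 17 Ctrl DD libraries. Its markers of neighbouring hypothalamus summed to 27.4 against 319 to 1117. Its general neuron markers were higher, at 1276 against 426 to 641, and so were its oligodendrocyte markers, at 2834 against 905 to 2074. None of the 7 SCN markers was at 0 throughout any group.

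Promoter sequences, which cover 250 bases before to 50 bases after a start of transcription (RefSeq, GRCm38.p6), matched 27 of the 36 genes, 13 cytosolic and 14 mitochondrial, and for Mars the match was by its synonym. They were searched on both strands for TGATGNAA, the core that ATF4 and C/EBP proteins are known to bind, and for CACGTG, the E-box of the clock factors. TGATGNAA lay in a promoter of 5 of the 27 genes, all 5 of them cytosolic, against 3.97% of 32851 promoters of the same length. A gene was counted if any of its promoters held the motif, while the share is over single promoters. Wars was among the genes without a promoter sequence, so it was not searched. A window of 30 bases around a match follows for each of the 5 genes, on the strand of the gene from 5′ to 3′, with the match in capitals. They are shown because these 5 genes are the ones whose values can be read beside this element. A position counts from 0 at the first transcribed base, and a match on the other strand is printed as the reverse complement of the motif.
Aars, position 9, chr8:111033840-111033869 (+): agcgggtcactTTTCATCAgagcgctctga
Gars, position -30, chr6:55037960-55037989 (+): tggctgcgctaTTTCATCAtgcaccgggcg
Iars, position 7, chr13:49682126-49682155 (+): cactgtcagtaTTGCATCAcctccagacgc
Tars, position -15, chr15:11399655-11399684 (-): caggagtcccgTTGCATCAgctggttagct
Yars, position 3, chr4:129189895-129189924 (+): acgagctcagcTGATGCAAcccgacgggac

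CACGTG lay in a promoter of 5 of the 27 genes (Farsb, Ears2, Aars, Iars and Tars), against 7.15% of all promoters counted singly. The windows of the 2 that also appear among the diet differences, Farsb and Aars, follow in the same form, with CACGTG in capitals. A match is only a string of letters in this window and was not tested for binding.
Farsb, position -39, chr1:78488919-78488948 (-): ttagacaggcatCACGTGagacagcccaag
Aars, position -146, chr8:111033684-111033713 (+): agtcaaccctgtCACGTGacactccatgtc

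The genes themselves are scattered. On GENCODE M21 (GRCm38) the 36 genes lay on 15 chromosomes, with at most 5 on any chromosome. Wars spans chr12:108860030-108894174 on the minus strand, and Aars spans chr8:111033144-111057664 on the plus strand.

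All 36 genes were above 0 FPKM in all 72 libraries, and all 36 averaged 0.5 FPKM or more in each group, the filter used. Over the 72 libraries the highest cytosolic means were those of Nars (asparagine) at 83.1 FPKM, Hars (histidine) at 51.9 and Sars (serine) at 49.7. Tars (threonine) at 11.0, Lars (leucine) at 10.9 and Vars (valine) at 9.42 were the lowest. Wars, at 31.5 FPKM, had rank 9 of the 20.

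Mitochondrial genes were lower. Apart from Lars2 (leucine) at 81.2 FPKM, the highest were Iars2 (isoleucine) at 14.6 and Tars2 (threonine) at 11.0. The lowest were Mars2 (methionine) at 2.57, Ears2 (glutamate) at 2.49 and Wars2 at 1.17 FPKM, which was the lowest of all 36. The separate value of Lars2 is taken up again with the ribosomal RNA below.

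**Figure D1:**
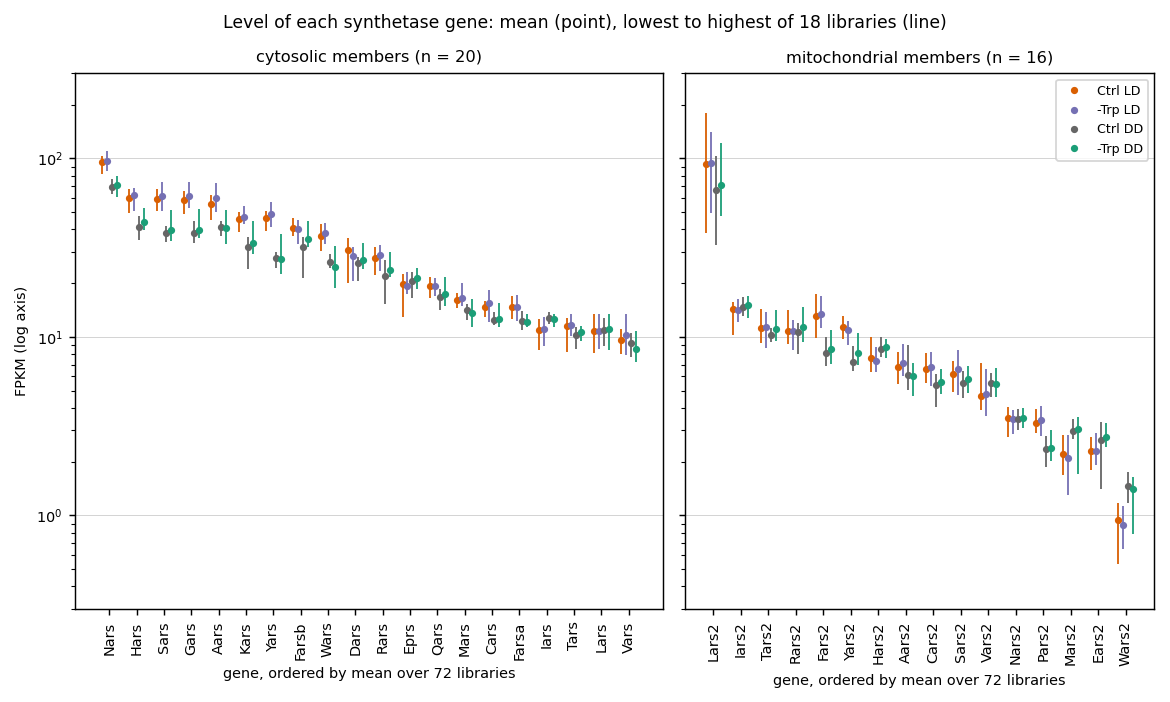
Level of each of the 36 synthetase genes in FPKM on a log axis, cytosolic genes at left and mitochondrial at right, ordered by their mean over 72 libraries; the point is the mean of the 18 libraries of a group and the line runs from the lowest to the highest. Nars is the highest cytosolic gene at 83.1 FPKM and Wars2 the lowest of all at 1.17, and Lars2 stands apart from the other mitochondrial genes with the longest lines.

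Within each light schedule the levels of Wars, the gene for the missing amino acid, overlapped between the diets. In Ctrl LD its level ran from 30.4 through a median of 37.0 to 43.0 FPKM (mean 36.9 ± 2.81, SD, n = 18), and in -Trp LD from 33.1 through 38.2 to 43.5 FPKM (38.3 ± 2.65). In Ctrl DD it ran from 24.2 through 26.2 to 29.1 FPKM (26.4 ± 1.66), and in -Trp DD from 18.9 through 24.3 to 32.2 FPKM (24.5 ± 3.06). No diet stood clear of the other, and every LD library of either diet was above all DD libraries of its diet.

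Wars2 was close to 1 FPKM throughout. It ran from 0.53 through 0.99 to 1.17 FPKM in Ctrl LD, from 0.65 through 0.90 to 1.13 in -Trp LD, from 1.17 through 1.46 to 1.75 in Ctrl DD and from 0.79 through 1.44 to 1.65 in -Trp DD. The diets overlapped in both schedules, and the levels were higher in DD than in LD, the reverse of Wars.

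The question of the diet comparison was which synthetase mRNAs differ when the food lacks tryptophan. It was asked separately in LD and in DD with limma on log2(FPKM + 0.5), which understates the change of low genes, with the 6 times as a factor and adjustment by Benjamini-Hochberg over all genes tested. In LD, 1 of the 36 genes passed, Aars, which charges alanine. Among all 14202 genes tested, 0.620% were called higher and 0.549% lower on -Trp.

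Aars ran from 45.1 through 56.5 to 62.4 FPKM in Ctrl LD (55.3 ± 5.21, SD, n = 18) and from 49.9 through 58.9 to 72.7 FPKM in -Trp LD (59.7 ± 5.52). The groups overlapped. On FPKM scaled between libraries, which is used for all such counts here, 8 of 18 -Trp libraries were above all Ctrl libraries. The scaled -Trp mean was higher at 6 of 6 times. The difference was 0.13 on the log2 scale (SE 0.03, limma adjusted p = 0.0343), a fold of 1.09. It passed narrowly: the adjusted p was between 0.0118 and 0.0619 when each of the 36 libraries was left out in turn, over the threshold in 15 of them, and it was 0.218 on FPKM without scaling.

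Wars in LD differed by 0.07 (log2, SE 0.03, limma adjusted p = 0.282) with a higher -Trp mean at 6 of 6 times, and Wars2 by -0.05 (SE 0.05, limma adjusted p = 0.714). Neither passed. Without adjustment, 7 of the 36 had p under 0.05, all of them cytosolic and higher on -Trp, while 7.49% of all genes were higher at that level. Beside Aars and Wars these were Gars (glycine) at 0.09, Cars (cysteine) at 0.09, Yars (tyrosine) at 0.08, Hars at 0.07 and Kars (lysine) at 0.07, where each value is a log2 difference.

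Small positive differences prevailed in LD. Of the 36, 28 were positive, 18 of 20 cytosolic and 10 of 16 mitochondrial, against 50.7% of all genes. The median difference was 0.05 over the 36, 0.06 over the cytosolic and 0.03 over the mitochondrial genes, against 0.001 over all genes. Among the 12 genes listed as known ATF4 targets (Aars, Cars, Eprs, Gars, Iars, Lars, Mars, Nars, Sars, Tars, Wars and Yars) all 12 were positive, from 0.01 to 0.13, with a median of 0.06 and 1 call. The 5 genes with TGATGNAA in the promoter windows shown above had differences of 0.13 (Aars), 0.09 (Gars), 0.08 (Yars), 0.05 (Tars) and 0.04 (Iars). In DD these genes went both ways, as given below. Whether genes with and without the element differ was not tested. The 8 enzymes of the cytosolic multi-synthetase complex (Eprs, Iars, Lars, Mars, Qars, Rars, Kars and Dars) had a median of 0.03 and 0 calls, with 1 at an unadjusted p under 0.05.

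Beside these values, 1 gene of the cell type lists passed in LD. The astrocyte water channel Aqp4 was lower on -Trp at -0.35 (log2, limma adjusted p = 0.0282). The 4 astrocyte markers went both ways, 2 of them positive, from -0.35 to 0.12 with a median of 0.05. The 3 endothelial markers were at -0.29 to -0.49, all 3 with an unadjusted p under 0.05 and none called. The SCN neuron markers ran from -0.62 (Avp, limma adjusted p = 0.0976) to 0.02 and the 4 markers of neighbouring hypothalamus from -0.29 to 0.85 (Agrp, adjusted p = 0.326). The 4 oligodendrocyte markers, with sums of 1596 to 2839 FPKM in Ctrl LD and 1375 to 2717 in -Trp LD, were all 4 lower without a call. The part of these markers in the values above was not tested.

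In DD, 3 of the 36 genes passed: Yars2 and Farsb were higher on -Trp and Wars was lower. Among the 14484 genes tested, 6.39% were called higher and 7.42% lower. Yars2 charges the mitochondrial tyrosine tRNA, and Farsb encodes the beta subunit of the cytosolic phenylalanine enzyme, whose alpha subunit is Farsa.

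Yars2 ran from 6.41 through 7.16 to 8.84 FPKM in Ctrl DD (7.27 ± 0.69, SD, n = 18) and from 6.94 through 8.15 to 10.5 in -Trp DD (8.14 ± 0.84). The ranges overlapped, but 17 of 18 -Trp libraries lay above the Ctrl median, and the -Trp mean was higher at 5 of 6 times. The difference was 0.15 (log2, SE 0.04, limma adjusted p = 0.0183), and it passed with any of the 36 libraries left out.

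Farsb ran from 21.3 through 31.7 to 36.4 FPKM in Ctrl DD (31.7 ± 3.60, SD, n = 18) and from 32.0 through 34.4 to 44.4 in -Trp DD (35.3 ± 3.09). Again 17 of 18 -Trp libraries were above the Ctrl median, and the lowest value, 21.3 FPKM, was that of the Ctrl DD library that stood apart. The difference was 0.16 (log2, SE 0.05, limma adjusted p = 0.0236) at 6 of 6 times, and 0.13 (limma adjusted p = 0.0188) without that library. Farsa, the other subunit, differed by -0.01 (log2, SE 0.03, limma adjusted p = 0.801).

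Wars in DD was lower on -Trp by -0.12 (log2, SE 0.04, limma adjusted p = 0.0416), a fold of 0.92. Its mean was lower at 6 of 6 times, and 7 of 18 -Trp libraries were below all Ctrl libraries while 2 were above them all. The call is close to the threshold: leaving out 1 of the 36 libraries gave adjusted p between 0.0151 and 0.0729, over 0.05 in 18 of them, and FPKM without scaling gave 0.0981. Wars2 in DD differed by -0.05 (log2, SE 0.06, limma adjusted p = 0.600).

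The -Trp DD library with the high sum of FPKM bears on these calls. Without it, Wars differed by -0.13 (limma adjusted p = 0.0193), Farsb by 0.14 (0.0340) and Yars2 by 0.13 (0.0240), and Vars, at -0.12 (0.0331), passed as well. With both libraries that stood apart left out, which was chosen after seeing the data, the same 4 genes passed, Yars2 at 0.14, Farsb at 0.11, Wars at -0.13 and Vars at -0.12. Vars with all libraries was at -0.11 (log2, SE 0.04, limma adjusted p = 0.0510).

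**Figure D2:**
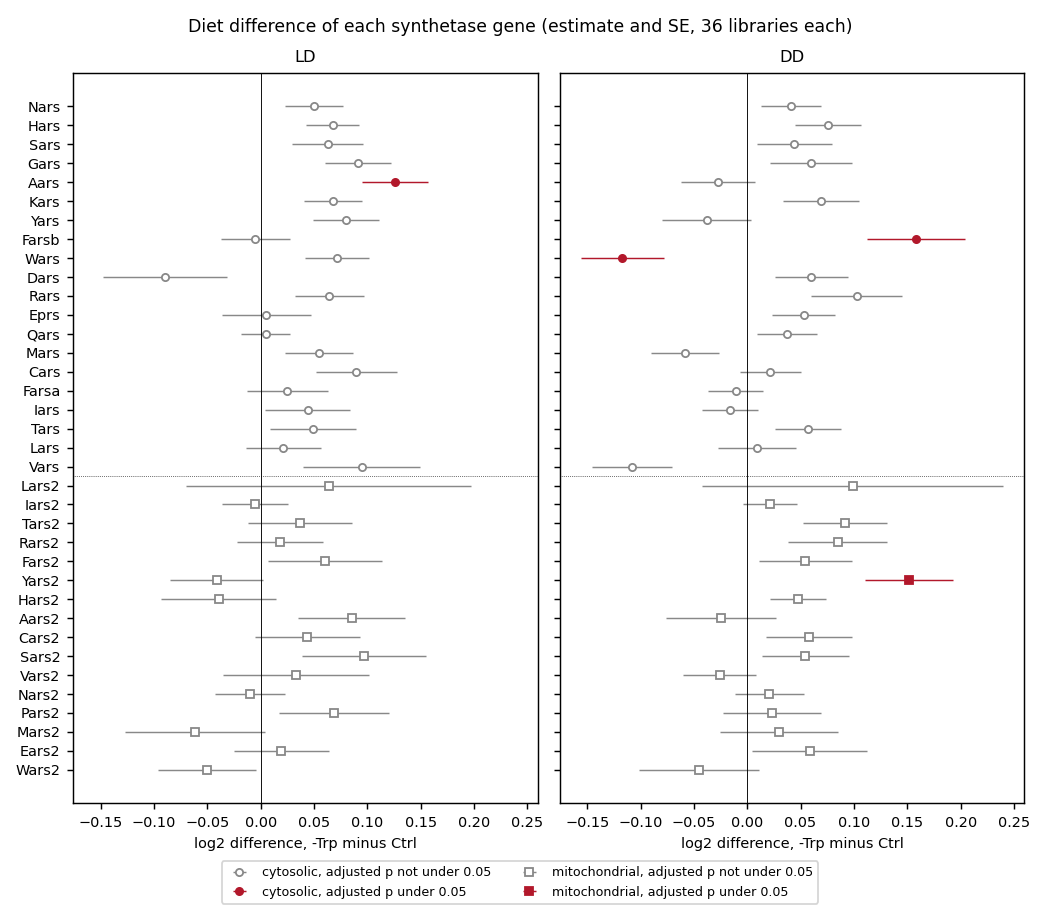
Log2 difference of each synthetase gene, -Trp minus Ctrl, with its SE, in LD at left and DD at right (36 libraries each); circles are cytosolic and squares mitochondrial genes, and filled red symbols passed an adjusted p of 0.05. Aars is the filled point in LD at 0.13, and in DD Yars2 (0.15) and Farsb (0.16) lie to the right and Wars (-0.12) to the left.

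Across the set in DD, 26 of 36 differences were positive against 51.3% of all genes, with a median of 0.04 against 0.004. Of the cytosolic genes 13 of 20 were positive and of the mitochondrial 13 of 16. At an unadjusted p under 0.05, 5 were higher, where 15.8% of all genes were. The 12 ATF4 targets were 7 positive and 5 negative with a median of 0.02, and Wars was the 1 call among them. With the -Trp DD library of high FPKM sum left out, none of the 5 genes with TGATGNAA passed. They were then at -0.04 (Aars), 0.04 (Gars), -0.06 (Yars), 0.06 (Tars) and -0.01 (Iars).

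Markers of several cell types differed between the diets in DD. The neuronal marker Rbfox3 differed by -0.27 (log2, limma adjusted p = 0.0440), the myelin gene Mag by -0.39 (0.0322), the microglial receptor Cx3cr1 by -0.23 (0.0162), Aqp4 by -0.23 (0.0242), the precursor marker Cspg4 by -0.17 (0.0338), and the haemoglobin gene Hba-a1 by 0.93 (0.0213). Markers of neighbouring hypothalamus ran more widely, all 4 at an unadjusted p under 0.05 and none called: Agrp differed by 1.44 (adjusted p = 0.0641), Oxt by 0.85 (0.0504), Trh by 0.60 (0.137) and Pomc by -1.12 (0.0972). The 4 oligodendrocyte markers summed to 905 to 2834 FPKM in Ctrl DD and 726 to 1859 in -Trp DD, all 4 lower. The 3 neuron markers summed to 426 to 1276 and 429 to 631 FPKM, all 3 lower with 1 call, and the 7 SCN markers to 40.5 to 537 and 190 to 801 FPKM, 6 of 7 higher without a call. Without the Ctrl DD library that stood apart, the highest Ctrl DD sums were 2074 FPKM (oligodendrocyte) and 641 (neuron), and the lowest SCN sum was 145. No marker was at 0 throughout a group. Their part in the diet differences was not tested.

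Whether the diet difference itself differed between LD and DD was tested as an interaction in all 72 libraries. It passed for 3 of the 36 genes. Of 14425 genes, 5.47% had a positive and 2.40% a negative interaction. Wars had an interaction of 0.18 (log2, SE 0.05, limma adjusted p = 0.0152), and its -Trp mean was the higher at 6 of 6 times in LD and the lower at 6 of 6 in DD. It passed with any of the 72 libraries left out. Aars had 0.15 (SE 0.05, limma adjusted p = 0.0408), from 0.13 in LD and -0.03 in DD. Yars2 had -0.20 (SE 0.06, limma adjusted p = 0.0314), from -0.04 in LD and 0.15 in DD. With both DD libraries that stood apart left out, the same 3 and Vars (0.0387 without the -Trp library alone) passed. On FPKM without scaling the adjusted p was 0.0553 for Wars, 0.115 for Aars and 0.0315 for Yars2. Among the cell type markers the interaction passed for Avp of SCN neurons at -1.01 (log2, limma adjusted p = 0.0358), Oxt of neighbouring nuclei at -1.15 (0.0310), the neuronal Rbfox3 at 0.41 (0.0161) and the precursor marker Cspg4 at 0.29 (0.00831). Their part in the interactions of the synthetases was not tested.

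By time of day, the diet difference of Wars in LD was 0.20 ± 0.06 (SE) at 12 h and 0.11 ± 0.01 at 0 h, and its smallest was 0.01 ± 0.12 at 8 h. In DD it was -0.21 ± 0.05 at 12 h and -0.17 ± 0.12 at 20 h, against -0.01 ± 0.13 at 8 h and -0.02 ± 0.11 at 4 h. At 12 h the 3 -Trp libraries were above the 3 Ctrl libraries in LD and below them in DD. Yars2 at 4 h had 13.0, 13.1 and 12.5 FPKM in Ctrl LD and 10.3, 10.3 and 11.0 in -Trp LD, whereas Ctrl DD had 6.4, 6.5 and 7.2 and -Trp DD 8.3, 10.5 and 7.5. Thus at 4 h the diets did not overlap in either schedule and lay in opposite order. The -Trp DD libraries at 4 h include the one with the high sum of FPKM. At 16 and 20 h Yars2 was higher on -Trp in both schedules, by 0.15 and 0.15 (log2) in LD and 0.21 and 0.17 in DD. These single times carry 3 libraries against 3 and were not tested.

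**Figure D3:**
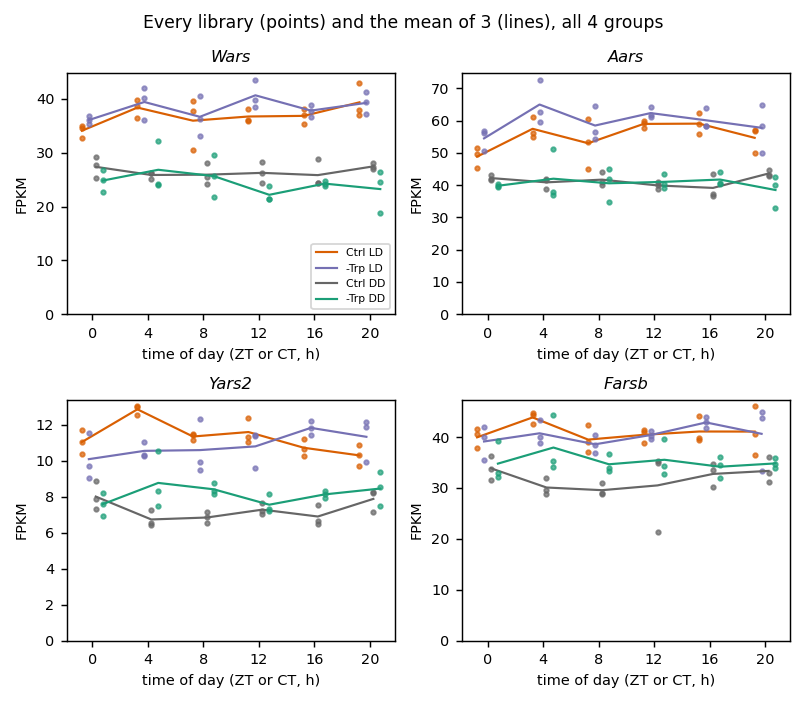
FPKM of Wars, Aars, Yars2 and Farsb against time of day in h, with a point for each library and a line through the mean of 3 libraries, for the 4 groups. The LD lines of Wars and Aars lie above the DD lines of the same diet at every time. In DD the -Trp mean of Wars was under the Ctrl mean at 6 of 6 times on scaled values, while the lines show FPKM as deposited.

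The partners of the synthetases were read from lists of related genes. The share of all genes called was 0.620% higher and 0.549% lower in LD and 6.39% and 7.42% in DD. Of 15 charging partners, 4 were higher on -Trp in DD and 0 lower: Eef1e1 by 0.22 (log2, limma adjusted p = 0.0191), Aimp1 by 0.17 (0.0202), Dtd1 by 0.16 (0.0230) and Aimp2 by 0.13 (0.0482). Eef1e1, Aimp1 and Aimp2 are the scaffold proteins of the multi-synthetase complex, and Dtd1 removes D-amino acids from tRNA. The 8 enzymes of that complex had 0 calls in DD, with 1 at an unadjusted p under 0.05 and a median of 0.04. In LD, 0 of the 15 partners passed, with 3 at an unadjusted p under 0.05. Eef1e1 had an interaction of -0.31 (limma adjusted p = 0.00983).

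Of 10 elongation factors, which bring charged tRNA to the ribosome and move the ribosome along, Eef1a2 passed in both schedules in opposite directions. It was 388 FPKM in Ctrl LD and 437 in -Trp LD (0.19 on the log2 scale, limma adjusted p = 0.0102), and 224 in Ctrl DD and 195 in -Trp DD (-0.21, limma adjusted p = 0.0395). Eef1b2 was higher in DD by 0.13 (limma adjusted p = 0.0398).

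Of 24 genes of the amino acid response, 22 passed the filter. In LD 1 was higher on -Trp, Chac1, a glutathione-degrading ATF4 target, by 0.22 (log2, limma adjusted p = 0.0101). In DD 2 were lower, Slc7a5 by -0.26 (0.00391) and Slc3a2 by -0.16 (0.00683), and 0 were higher. They encode the subunits of the transporter that carries tryptophan and other large amino acids into cells. Asns, asparagine synthetase, differed by 0.09 in LD (limma adjusted p = 0.162) and 0.10 in DD (0.0662), and Atf4 itself by 0.06 and -0.01. Among interferon-response genes, Gbp3 was lower in LD by -0.30 (limma adjusted p = 0.0354) and Psmb9 in DD by -0.29 (0.0498), the 1 call of this list in each schedule. Of that list 1 of 12 tested in LD and 0 of 13 in DD were positive, against 50.7% and 51.3% of all genes.

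More synthetases differed between the light schedules than between the diets, and the same held for all genes, most of which differed between the schedules. On Ctrl diet 29 of the 36 genes differed between LD and DD, 20 higher and 9 lower in LD, in a comparison where 41.2% of 14426 genes were called higher and 37.7% lower. On -Trp 31 differed, 20 higher and 11 lower, where 41.8% and 37.8% of 14403 genes were called. Of the cytosolic genes 15 were higher and 3 lower on Ctrl and 14 and 3 on -Trp, and of the mitochondrial genes 5 and 6, and 6 and 8. That split between compartments was not itself tested. Without the library of each diet that stood apart, 31 differed on Ctrl and 32 on -Trp. All LD libraries had a higher sum of FPKM than 35 of the 36 DD libraries, so the light schedules and this property of the libraries cannot be told apart.

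Yars had the smallest p on both diets. It ran from 39.1 through 46.9 to 51.0 FPKM in Ctrl LD and from 24.4 through 27.9 to 30.1 in Ctrl DD. On -Trp it ran from 41.0 through 48.3 to 57.1 in LD and from 22.6 through 26.9 to 37.7 in DD. No LD library overlapped the DD libraries of its diet, and the difference was 0.63 on Ctrl (log2, SE 0.03, limma adjusted p = 2.07e-17) and 0.74 on -Trp (SE 0.04, limma adjusted p = 1.80e-16).

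The next genes by p were Sars at 0.52 and Kars at 0.41 on Ctrl, and Hars at 0.41 and Gars at 0.53 on -Trp, where each value is the log2 difference of LD minus DD. Sars ran from 50.8 through 59.7 to 67.6 FPKM in Ctrl LD and from 34.0 through 38.4 to 41.6 in Ctrl DD. Gars ran from 52.9 through 61.1 to 73.3 FPKM in -Trp LD and from 35.7 through 39.0 to 52.3 in -Trp DD. These ranges did not overlap.

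Both genes for tryptophan differed between the schedules, in opposite directions. Wars was higher in LD by 0.37 on Ctrl (log2, SE 0.03, limma adjusted p = 6.09e-12) and 0.55 on -Trp (SE 0.04, limma adjusted p = 1.87e-13), with 18 of 18 LD libraries above all DD libraries on each diet. Wars2 was lower in LD by -0.51 on Ctrl (SE 0.05, limma adjusted p = 2.22e-11) and -0.52 on -Trp (SE 0.05, limma adjusted p = 1.09e-10). On Ctrl 18 of 18 LD libraries of Wars2 were below all DD libraries, and on -Trp 3 of 18 were. Without the -Trp DD library with the high sum of FPKM, the difference of Wars2 on -Trp was -0.55 (log2, limma adjusted p = 4.48e-13).

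Mars2 and Ears2, with Wars2 the lowest mitochondrial genes, were also lower in LD, Mars2 by -0.45 on Ctrl and -0.54 on -Trp and Ears2 by -0.25 and -0.29. Tars, Lars and Vars, the lowest cytosolic genes, differed by 0.05, -0.12 and -0.04 on Ctrl, of which only Lars passed (limma adjusted p = 0.00815). With FPKM not rescaled the split was 24 higher and 6 lower on Ctrl and 23 and 8 on -Trp, and the median of all genes moved from 0.02 to 0.11 on either diet. The number of genes called lower thus rests on the scaling.

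**Figure D4:**
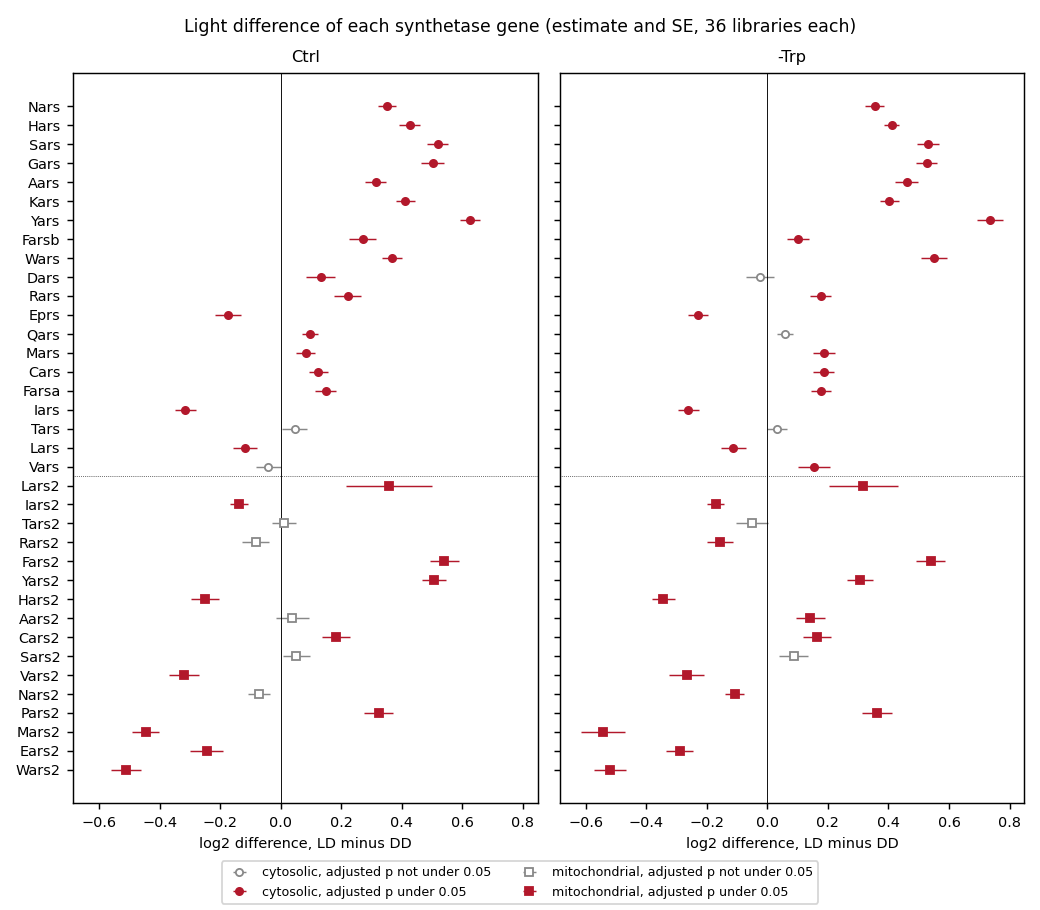
Log2 difference of each synthetase gene, LD minus DD, with its SE, on Ctrl at left and -Trp at right (36 libraries each); circles are cytosolic and squares mitochondrial genes, and filled red symbols passed an adjusted p of 0.05. Yars lies farthest to the right at 0.63 and 0.74, and Wars2 and Mars2 lie at the left near -0.5 on both diets.

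Peptide genes of neighbouring nuclei differed between the schedules as well. Agrp and Pomc, peptides of the arcuate nucleus, differed by -3.85 and -3.59 on Ctrl and -4.45 and -2.56 on -Trp, and Oxt of the neighbouring nuclei by 1.93 and 0.79. The 4 oligodendrocyte markers were called higher in LD on both diets, with sums of 1596 to 2839 FPKM in Ctrl LD against 905 to 2834 in Ctrl DD. The value of 2834 was that of the Ctrl DD library that stood apart, and the other 17 reached 2074. Of the 22 amino acid response genes tested, 17 were called higher and 3 lower in LD on Ctrl, and 18 and 3 on -Trp. Of all genes 41.2% and 37.7% were on Ctrl, and 41.8% and 37.8% on -Trp. In this list Eif2ak4, which encodes GCN2, differed by -0.89 and -0.96 and Atf4 by 0.73 and 0.79. The part of tissue outside the SCN in the differences of the synthetases was not tested.

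Lars2 varied more between libraries than the other synthetases. It ran from 38.4 through 90.6 to 179 FPKM in Ctrl LD, from 49.4 through 96.2 to 141 in -Trp LD, from 32.9 through 66.8 to 103 in Ctrl DD and from 47.5 through 62.1 to 122 in -Trp DD. Its values followed those of Rn45s, the row of the ribosomal RNA precursor, with a Spearman rho of 0.95 over the deviations of the 72 libraries from their group and time means and 0.82 to 0.95 within each group of 18. For the other 35 genes that rho lay between -0.47 (Vars) and 0.44 (Tars). These are descriptions over libraries that share a group and a time. Rn45s itself was higher in LD by 1.60 on Ctrl and 1.08 on -Trp (log2), and the light differences of Lars2, 0.36 (SE 0.14) and 0.32 (SE 0.11), stand beside that value. How much of the level of Lars2 is ribosomal sequence was not tested.

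Rhythms over the day were called with JTK_CYCLE, a rank test with an exact null distribution, at a period of 24 h and p under 0.05, the threshold of the study, on FPKM as deposited. In Ctrl LD 9 of 36 genes were rhythmic, 2 cytosolic and 7 mitochondrial, where 7.11% of all rows and 10.9% of the genes averaging 0.5 FPKM or more were. In -Trp LD 6 were, 4 cytosolic and 2 mitochondrial, against 7.42% and 11.1%. In Ctrl DD 1 was, against 4.92% and 6.62%, and in -Trp DD 0 were, against 1.42% and 1.81%. With Benjamini-Hochberg adjustment over all rows 1 call was left in all, Lars in -Trp LD.

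Lars had the smallest p of any synthetase, 3.39e-06 in -Trp LD with a peak at 8 h, and 0.00203 in Ctrl LD with a peak at 10 h. Its means over 3 libraries in Ctrl LD were 9.70 ± 0.65 FPKM (SD) at 0 h, 12.0 ± 0.23 at 4 h, 12.2 ± 1.36 at 8 h, 11.6 ± 0.61 at 12 h, 9.95 ± 0.62 at 16 h and 9.40 ± 1.46 at 20 h. In -Trp LD they were 10.5 ± 0.23, 12.5 ± 0.77, 11.9 ± 0.38, 11.3 ± 0.32, 9.52 ± 0.88 and 9.29 ± 0.85 FPKM at the same times. On both diets the means at 4, 8 and 12 h were thus above those at 0, 16 and 20 h, with a ratio of the highest to the lowest mean of 1.30 on Ctrl and 1.34 on -Trp.

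Tars2 ran in the opposite phase. In Ctrl LD its means were 12.3 ± 0.84 FPKM (SD) at 0 h, 11.4 ± 0.31 at 4 h, 10.6 ± 0.68 at 8 h, 9.46 ± 0.25 at 12 h, 11.0 ± 0.71 at 16 h and 12.5 ± 1.56 at 20 h, with a peak called at 0 h (exact JTK_CYCLE p = 6.27e-05). In -Trp LD its lowest mean, 9.24 ± 0.86 FPKM, fell at 8 h and its peak was called at 20 h (exact p = 0.0340). Qars (glutamine) peaked at 12 h on Ctrl (exact p = 0.00139) and 10 h on -Trp (p = 0.0147), and Rars2 (mitochondrial arginine) at 6 h (p = 0.0196) and 8 h (p = 0.0340). These 4 genes made up the overlap of the diets, 44.4% of the 9 Ctrl calls and 66.7% of the 6 -Trp calls. The overlap over all genes is not given here, so these shares are not read as a trait of the synthetases. The called peaks of the 4 genes differed by 2 to 4 h between diets. In -Trp LD, leaving out 1 library at a time kept Lars in 18 of 18 cases, Qars in 16, Tars2 in 10 and Rars2 in 7. Tars2 was lost without 0 h replicate 2, 4 h replicate 1 or 3, any library of 8 h, 12 h replicate 3 or 20 h replicate 3. Rars2 was lost without 0 h replicate 3, any library of 4 h, 8 h replicate 1 or 2, 12 h replicate 3, 16 h replicate 3 or any library of 20 h. Qars was lost without 16 h replicate 1 or 2.

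The other calls in Ctrl LD were Cars2 at 0 h (exact p = 0.00412), Yars2 at 6 h (p = 0.00576), Lars2 at 14 h (p = 0.0196), Wars2 at 22 h (p = 0.0259) and Ears2 at 0 h (p = 0.0340). In -Trp LD they were Rars at 12 h (exact p = 0.00139) and Hars at 12 h (p = 0.0109). Wars was rhythmic in none of the 4 groups, with p from 0.749 to 1. Eprs, which charges both glutamate and proline, was the 1 call in Ctrl DD (peak at 20 h, exact p = 0.0109), with a ratio of its highest to its lowest mean of 1.13. Ratios were modest: 1.19 to 2.08 in Ctrl LD, with Lars2 at the upper end, and 1.16 to 1.34 in -Trp LD.

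**Figure D5:**
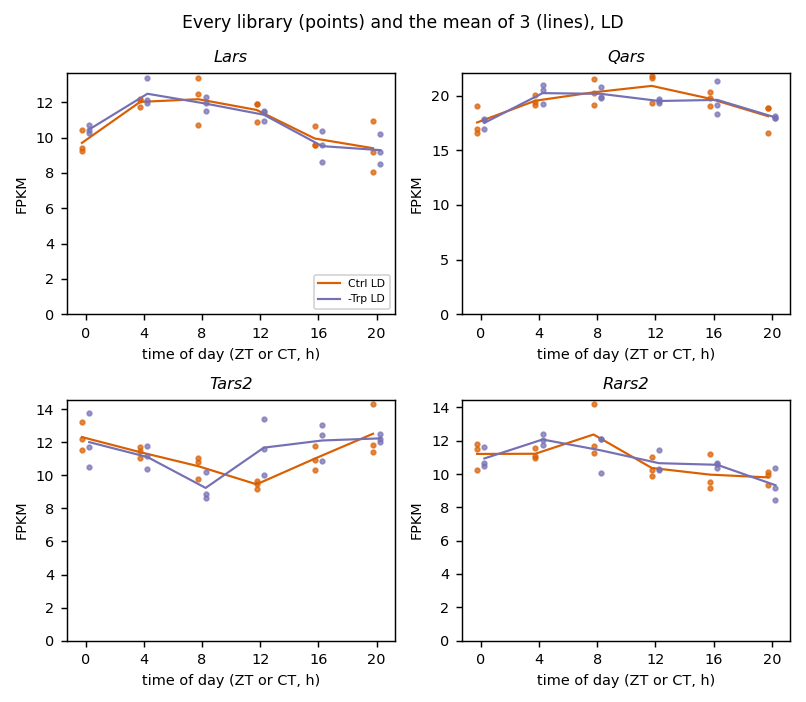
FPKM of Lars, Qars, Tars2 and Rars2 against time of day in h in LD, with a point for each library and a line through the mean of 3 libraries, on Ctrl and -Trp. Lars is highest at 4 to 8 h on both diets, and Tars2 is lowest at 12 h on Ctrl (9.46 FPKM) and at 8 h on -Trp (9.24 FPKM).

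A call on 1 diet and not the other does not show a difference, so the 24 h cosine and sine were compared between diets with limma. In LD 0 of the 36 genes passed, as did 0% of 14202 genes, and at an unadjusted p under 0.05 there was 1, Yars2 (unadjusted limma p = 0.00151, not an exact test), where 3.39% of all genes were. In DD 0 passed against 0.0414% of 14484 genes, and 2 had an unadjusted p under 0.05, Eprs and Wars2, against 7.03%. With time of day as a factor in place of the cosine and sine, 0 passed in either schedule. Yars2 in LD had its highest mean at 4 h on Ctrl (12.8 ± 0.28 FPKM, SD) and at 16 h on -Trp (11.8 ± 0.39).

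The structural classes of the enzymes, which differ in the fold of the catalytic domain, were also counted. Of the 19 class I genes 9 were higher and 8 lower in LD than DD on Ctrl, and of the 17 class II genes 11 were higher and 1 lower. On -Trp the counts were 9 and 9, and 11 and 2. Of all genes 41.2% were called higher and 37.7% lower on Ctrl, and 41.8% and 37.8% on -Trp. The difference between the classes was not tested. In the diet comparison class II had 13 positive of 17 in LD and 14 of 17 in DD, and class I 15 and 12 of 19.

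Over the 72 libraries the genes most like Wars by Spearman rho were Ccdc97 (0.95), Eef1a2 (0.95) and Abcf1 (0.95). Among the synthetases Yars (0.92, rank 64 of all genes), Aars (0.90, rank 183) and Sars (0.83, rank 825) were the nearest, and Wars2 had a rho of -0.77. These values include the light and diet differences above. After removing the mean of each group and time, the median rho was 0.21 over 190 cytosolic pairs, of which 142 were positive, 0.09 over 105 mitochondrial pairs and 0.06 over 300 mixed pairs. The closest pair was Vars with Vars2, the cytosolic and mitochondrial valine enzymes (0.82), followed by Farsb with Rars (0.74) and Sars with Yars (0.74).

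With the columns placed by their own names, 12 of the differences tested for the named genes changed sign. The diet comparison then called 26 of 36 genes in LD, where 65.5% of all genes were called, and 26 in DD, where 70.7% were. Wars differed by -0.35 in LD and 0.38 in DD, and Aars by -0.33 in LD (log2). The light comparison called 2 on Ctrl (5.91% of all genes) and 29 on -Trp (78.0%), and the interaction called 31 (77.5%). Rhythm differences between diets were called for 24 genes in LD (51.9%) and 8 in DD (34.8%). JTK_CYCLE called 27 genes in Ctrl LD (37.8% of all rows) and 0 in -Trp LD (2.48%). In DD it called 17 on Ctrl (27.6%) and 7 on -Trp (6.68%). The sums of FPKM then ran from 317417 to 524705 in Ctrl LD, 325030 to 483096 in Ctrl DD, 317790 to 411944 in -Trp LD and 419826 to 492024 in -Trp DD. The values alone do not say which placing is that of the mice.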

How the data were processed

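RNA of the SCN was extracted with TRIzol and made into stranded mRNA libraries read from both ends. The authors used TopHat for alignment to mm10, and Cufflinks for the FPKM of each gene in each replicate. These FPKM values are what they deposited, in 1 table per group. Trimmomatic is listed in the submitters' processing notes. Versions, and any scaling between libraries, are not given in the sources used here. FPKM keeps no counts, so the depth per library is unknown, no counting interval is given, and precision comes from the spread between mice.

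Groups were taken from the labels, 72 samples in 4 groups. The columns were placed by the order of the study's SCN table of values, to which all 36 control columns matched, and, as an alternative, by their own names. For Ctrl LD at 0 h the labels number a replicate 4 where the columns have a replicate 3, which was mapped to the group only. No column of per-sample values was left unused.

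Levels were compared with limma 3.58.1 in R 4.3.3 (eBayes with trend) on log2(FPKM + 0.5), with the libraries tested scaled by median of ratios and genes averaging under 0.5 FPKM left out, with time of day as a factor of 6 levels and Benjamini-Hochberg adjustment at 0.05. Rhythms were called with JTK_CYCLE, newly written in Python (version 3.11.15, with numpy version 2.4.6, pandas version 2.3.3 and scipy version 1.17.1), with its exact null distribution, for 24 h and with Bonferroni adjustment over 6 lags. Its p-values and lags were checked against the study's table and equalled all 1999 Ctrl LD and 135 Ctrl DD entries. The limma and JTK_CYCLE steps were tested on simulated data. Correlations are Spearman's.

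The 36 genes, the lists and the tests were chosen with earlier results of these data known, so that no pattern seen before is counted as independent support. Named genes were Wars and Wars2, every gene past the threshold in a diet or interaction test, the 3 with the smallest p in the other tests, the 3 highest and lowest of each compartment, rhythmic genes (at most 6 per group), up to 3 of each list and the 3 genes most like Wars. The rest were named after their values were seen. These include Farsa, Vars in DD, and further genes in the light comparison, rhythm lists and pairs. Lists were written from general knowledge. Of 5 ribosomal RNA rows listed, 1 was in the tables. Alternatives were FPKM as deposited, other pseudocounts (0.1 and 1), no filter, a mean of at least 1 FPKM, a replicate block, other codings of time, 1 fit of all 72 libraries, a limma cosinor and leaving out each library. Figures were drawn with matplotlib 3.10.9. Another promoter window and another marker gene are not reported here.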

Additional observations from a re-analysis of the deposited data

Results flagged for a closer look

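The diet difference of 3 synthetase genes differed between LD and DD by a test of the interaction itself in all 72 libraries. The test used limma with Benjamini-Hochberg adjustment over 14425 genes. Of the 36 synthetase genes, 2 had a positive and 1 a negative interaction, where 5.47% and 2.40% of all genes tested did. The share among the synthetases was not tested against that of all genes. For Wars the difference in LD minus that in DD was 0.18 on the log2 scale (SE 0.05, adjusted p = 0.0152), from 0.07 in LD and -0.12 in DD, and the adjusted p stayed between 0.00418 and 0.0264 with each library left out in turn. For Yars2 it was -0.20 (SE 0.06, adjusted p = 0.0314), from -0.04 and 0.15, and it was lost, at an adjusted p of 0.05025, only without -Trp LD at 8 h, replicate 3. For Aars it was 0.15 (SE 0.05, adjusted p = 0.0408), from 0.13 and -0.03, with an adjusted p of 0.0181 to 0.0683 and over the threshold in 21 of 72 such fits. Those left out -Trp LD 0 h replicate 3, 4 h replicate 1, 8 h replicate 3 or 20 h replicate 2, Ctrl LD 0 or 4 h replicate 1 or 2 or 8 h replicate 1 or 3, Ctrl DD 0 or 4 h replicate 2, 8 or 20 h replicate 3 or 16 h replicate 1, or -Trp DD 0 or 20 h replicate 1, 4 h replicate 1 or 3, 8 h replicate 2 or 12 h replicate 3. With the columns placed by their own names the interactions of Wars and Aars turned to -0.72 and -0.63, and that of Yars2 was -0.46. The cause was not tested.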

How the results depend on the processing

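The placing of the columns decided most. By their own names the columns gave diet calls for 26 genes in LD and 26 in DD, light calls for 2 on Ctrl and 29 on -Trp, interactions for 31, rhythm differences for 24 in LD and 8 in DD, and JTK_CYCLE calls in LD for 27 on Ctrl and 0 on -Trp, and in DD for 17 and 7. The directions that turned were those of Aars (-0.33), Wars (-0.35) and Wars2 (0.23) for diet in LD, Wars (0.38) for diet in DD, Yars (-0.68), Hars (-0.41), Gars (-0.52), Wars (-0.42) and Wars2 (0.45) for light on -Trp, and Wars (-0.72), Aars (-0.63) and Wars2 (0.63) for the interaction. The cause was not tested.

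In the main placing, the 1 diet call in LD (Aars) was lost, to 0, on FPKM as deposited (adjusted p = 0.218), with cosine and sine for time (0.0856) and in 1 fit of all 72 libraries (0.0519). That single fit gave 5 diet calls in DD in place of 3. The 3 interactions became 1 on FPKM as deposited and 5 at a mean of at least 1 FPKM. For Wars in DD the adjusted p was 0.0558 with no filter, and for the interaction of Aars 0.0546. Benjamini-Hochberg adjustment left 0 rhythmic genes on Ctrl in either schedule and 1 in -Trp LD, median-of-ratios FPKM gave 10 in -Trp LD, and a limma cosinor gave, in DD, 0 on Ctrl and 1 on -Trp with pseudocounts of 0.5, 0.1 and 1. Pseudocounts of 0.1 and 1 changed no reported call of a level. Wars2 could not be tested in LD at a mean of at least 1 FPKM.

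Leaving out 1 library at a time gave 0 to 1 diet calls in LD, 2 to 5 in DD, 29 to 31 and 31 to 33 light calls on Ctrl and -Trp, 1 to 6 interactions, and rhythmic genes of 6 to 10 (Ctrl) and 4 to 7 (-Trp) in LD and 1 to 2 and 0 to 2 in DD. Rhythm differences were 0 to 0 in both schedules. Aars in LD was lost without -Trp LD 0 h replicates 1 and 3, 4 h replicate 1, 8 h replicate 3, 12 h replicate 2 or 20 h replicate 2, or Ctrl LD 0, 4 and 12 h replicates 1 and 2, 8 h replicates 1 and 3 or 16 h replicate 1. Wars in DD was lost without Ctrl DD 0 h replicates 2 and 3, 4 h replicates 1 and 2, 8 h replicate 1, 12 h replicates 2 and 3, 16 h replicate 1 or 20 h replicates 2 and 3, or -Trp DD 0, 16 and 20 h replicate 1, 4 h replicates 1 and 3, 8 h replicate 2 or 12 h replicates 2 and 3. The 5 diet calls in DD came without -Trp DD 20 h replicate 2. Interactions were 1 without -Trp LD 8 h replicate 3, 6 without Ctrl LD 20 h replicate 2, and 5 without Ctrl LD 16 h replicate 2 or 3, -Trp LD 16 or 20 h replicate 1, Ctrl DD 0 or 20 h replicate 1, Ctrl DD 8 or 16 h replicate 2, or -Trp DD 0 h replicate 2 or 3 or 20 h replicate 2. Rhythmic genes were 2 in Ctrl DD without 8 h replicate 3, any library of 12 h, or 16 h replicate 2 or 3, and in -Trp DD 1 without 4 h replicate 2 or 8 h replicate 1 and 2 without 0 h replicate 1 or 8 h replicate 2 or 3. The interaction of Wars2, near 0, ran from -0.0491 to 0.0063 and changed sign in 8 such fits (0.0014, 0.0015, 0.0020, 0.0028, 0.0045, 0.0045, 0.0047 and 0.0063).

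Correlations of same-numbered deviations between the diets ran from -0.35 to 0.27 in LD. Their means there were 0.04, -0.06 and -0.03 for replicates 1, 2 and 3. In DD they ran from -0.07 to 0.44, with means of 0.19, 0.18 and 0.19, and 3, 4 and 5 of 6 pairs were over 0.1. The main fits did not pair samples by replicate number, and these values do not settle whether the numbers pair them in DD. With the replicate block the diet called 1 gene in LD and 4 in DD, light 29 and 31, the interaction 4 and the rhythm differences 0 and 0, and a cosinor with the block called 0 in Ctrl DD.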
